A study of Mus musculus with 12 samples.

Results

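Genes whose RNA level in the mouse spleen was highest at 6-9 weeks of age, above both younger and older animals, are described here across 12 arrays. They were selected on measured values. Each array was scaled to a trimmed mean of 500 (2% of probe sets trimmed at each end), 32 was added and log2 was taken. A gene was taken if its brightest probe set (the group of oligonucleotides that measures 1 transcript) had 1 gene symbol, was no control and no immunoglobulin variable gene, and reached a scaled signal of 100 on at least 2 arrays. Its mean over the 4 arrays at 6-9 weeks also had to be at least 0.7 above the means at both other ages, and each of those 4 arrays had to lie above all other 8. Of the 6515 genes that the rule could take, 151 met it (2.32%). Because the age differences chose these genes, their rise and fall around 6-9 weeks is given as a description, with no test.

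Total RNA of spleens from female and male mice of 3 ages was measured on Affymetrix arrays, with replicates a and b in every group. The 6 groups were females and males aged 3-4 weeks, 6-9 weeks and 24-28 weeks, which the study calls the times before, during and after puberty. The labels name no treatment, strain or genotype. They also do not say whether replicates a and b were different mice. The tests below therefore weigh a difference against array-to-array spread alone, and that spread may hold no variation between animals.

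The spleen filters blood in its red pulp, where macrophages take up aged red cells and, in mice, erythroid precursors and other blood cells continue to be made after birth. Its white pulp holds B cell follicles and T cell zones, which fill as the young animal meets antigens. RNA from the whole organ mixes all of these cells, so a gene's level here depends both on how many cells of a type were present and on how much RNA each carried, and fewer cells of a type and less RNA per cell cannot be told apart.

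Peak height below means the log2 difference between a gene's mean at 6-9 weeks and the higher of its means at 3-4 and 24-28 weeks, on the log2(scaled signal + 32) scale, which understates the change of dim probe sets. Across the 151 genes it ran from 0.70 to 1.68, with a median of 0.84, and 30 genes had a peak height of at least 1. The median difference from 3-4 weeks was 0.85 and that from 24-28 weeks 1.30, against 0.05 and 0.16 over all 6515 genes. The genes therefore stood further above the old arrays than above the young ones: 135 of the 151 had a lower mean at 24-28 than at 3-4 weeks, and 16 a higher one. The lowest of a gene's 12 arrays was at 24-28 weeks for 133 genes, and a male array at that age for 111. The highest was a male array at 6-9 weeks for 102 genes and a female one for 49. For 68 genes the mean at 6-9 weeks stood at least 0.7 above both other ages in females and also in males.

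**Figure D1:**
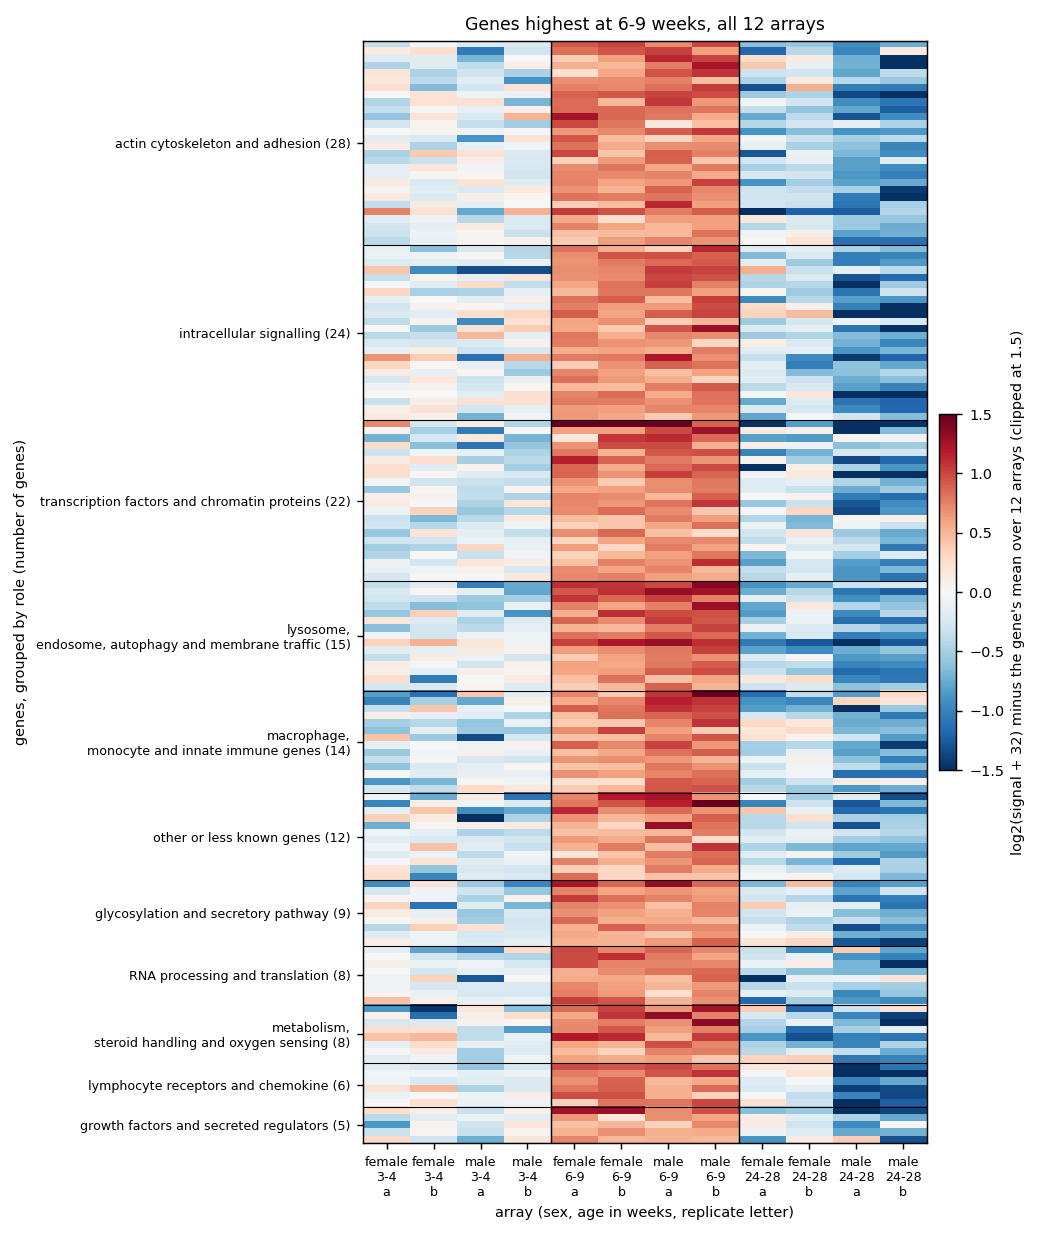
Each row is 1 of the 151 genes and each column 1 of the 12 arrays; colour gives log2(scaled signal + 32) minus the gene's mean over all arrays, and rows are grouped by role with the number of genes in brackets. The 4 columns at 6-9 weeks are the highest in every row, as the rule requires, and the male columns at 24-28 weeks hold the lowest value of 111 rows.

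The same rule turned to other ages and directions gives a scale for the number 151, with no test. It took 140 genes that were lowest at 6-9 weeks, 20 that peaked at 3-4 weeks and 51 that peaked at 24-28 weeks, 5 that were lowest at 3-4 weeks and 187 that were lowest at 24-28 weeks. With the genes split into 4 equal classes by mean signal, 2.76% of the dimmest class and 1.66% of the brightest met the peak rule. Just inside the threshold lay Araf (0.70), Efnb2 (0.70), Foxp1 (0.70), Icam1 (0.71) and Pip4k2a (0.71), and just outside it Sash1 (0.6998), Nynrin (0.698), Map7d1 (0.695), Tcf4 (0.694) and Tgoln1 (0.694). Pea15a (1.48), Inppl1 (1.18), Csnk1e (1.17), Ccr6 (1.13) and Tomm34 (1.13) had tall peaks but at least 1 array at 6-9 weeks within the range of the other ages.

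Several array-wide measures moved with these genes. The mean log2 level of the 151 genes was 8.38 and 8.38 on the female and 8.25 and 8.33 on the male arrays at 3-4 weeks, 9.20, 9.20, 9.28 and 9.31 at 6-9 weeks, and 8.16, 8.24, 7.69 and 7.67 at 24-28 weeks. The ratio of the beta-actin 3' to 5' control signals, which rises as RNA is shortened, was lowest at 6-9 weeks and highest on the male arrays at 24-28 weeks. The beta-actin ratio was 1.20 ± 0.24 (SD, n = 2) in females and 1.11 ± 0.12 in males at 3-4 weeks, 0.656 ± 0.116 and 0.355 ± 0.030 at 6-9 weeks, and 1.30 ± 0.09 and 2.5 ± 0.16 at 24-28 weeks. The same ratio of Gapdh did not follow the genes as closely: it was 2.57 ± 0.49 in females and 2.31 ± 0.07 in males at 3-4 weeks, 1.89 ± 0.03 and 1.22 ± 0.23 at 6-9 weeks, and 1.73 ± 0.13 and 2.34 ± 0.05 at 24-28 weeks. The median scaled signal of all probe sets was highest on the male arrays at 6-9 weeks (211 and 203) and lowest on the male arrays at 24-28 weeks (156 and 153). The part of RNA quality in the age and sex differences was not tested. Markers of spleen cells were present on every array: the summed scaled signal ran from 44121 to 81569 for the B cell list, from 4061 to 12765 for the T cell list and from 66801 to 98994 for the list of red pulp macrophages and monocytes. The age comparisons also depend on the scaling: the median difference of all tested probe sets between 6-9 and 24-28 weeks was 0.15 with the trimmed mean, -0.01 after quantile normalization and -0.11 after scaling to the array median. With the array median 71 genes met the rule, all of them among the 151, and with quantile normalization 113 did, 101 of them among the 151. Under each of 21 other settings 44 genes met the rule, and those with values given below are Tbc1d20, Mef2c, Lrp10, Cmtm6, Ctsz, Ccl5, Star, Marco, Cd8a, Fkbp5, Rac2, Rab11b, Irf4, Csf1r and Clu. Without the male arrays at 24-28 weeks 127 genes met it (123 among the 151), and without the male arrays at 6-9 weeks 193 did (109 among the 151).

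**Figure D2:**
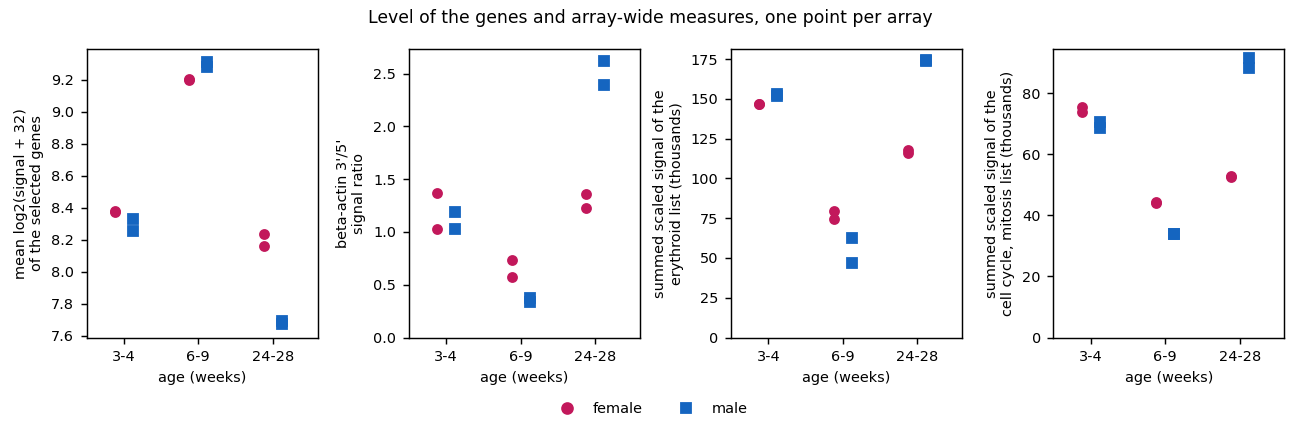
Points are single arrays by age in weeks, females as circles and males as squares. From left to right they show the mean log2(scaled signal + 32) of the 151 genes, the beta-actin 3'/5' signal ratio, and the summed scaled signal of the erythroid and the mitosis gene lists (axis divided as labelled). The gene level is highest and the other measures lowest at 6-9 weeks, and the male arrays at 24-28 weeks lie at the opposite end of each.

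The 15 genes of lysosomes, endosomes, autophagy and membrane traffic had a median peak height of 0.96 and held the tallest peak of all. Tbc1d20 read 128 and 149 in females and 68.3 and 90.0 in males at 3-4 weeks, 409.5 and 402 and 379 and 504 at 6-9 weeks, and 79.8 and 89.8 and 134 and 145 at 24-28 weeks. Tbc1d20, a Rab GTPase-activating protein of the early secretory pathway and of autophagosome maturation, thus had a peak height of 1.68, with every array at 6-9 weeks far above the rest and no order between the other ages. At 3-4 weeks Lrp10 gave 207 and 253 in females and 221 and 131 in males, at 6-9 weeks 501, 563, 663 and 634, and at 24-28 weeks 135, 178, 99.9 and 86.8. Lrp10, a member of the LDL receptor family that cycles between Golgi and endosomes, peaked by 1.43 and was lowest on the male arrays at 24-28 weeks. The Ctsz signal was 768 and 749.5 (females) and 634 and 653 (males) at 3-4 weeks, then 1994, 1715, 1932 and 1579, and last 848, 741, 477 and 562. For Cln6 the female arrays read 58.6 and 44.1, then 167 and 147, then 36.8 and 101 at the 3 ages, and the male arrays 45.8 and 77.5, then 168 and 257, then 55.1 and 46.3. Ctsz encodes cathepsin Z, a lysosomal cysteine protease, and Cln6 an endoplasmic reticulum membrane protein needed for lysosome function; their peak heights were 1.32 and 1.26, and neither gene's arrays at 6-9 weeks overlapped with the others.

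The recycling endosome GTPase Rab11b, the lysosomal growth factor precursor Grn (progranulin) and the phosphoinositide-binding protein Pxk were the members of this group with the smallest p between 24-28 and 3-4 weeks. Rab11b read 411 and 474 in females and 368 and 298 in males at 3-4 weeks, 682 and 781 and 838 and 724 at 6-9 weeks, and 137 and 114 and 56.3 and 113 at 24-28 weeks. At 3-4 weeks Grn gave 568 and 569 in females and 709 and 663 in males, at 6-9 weeks 999, 1049.5, 1124 and 1331, and at 24-28 weeks 350.3, 316, 369 and 413. The Pxk signal was 525 and 447 (females) and 519 and 509 (males) at 3-4 weeks, then 756, 775, 951 and 1002, and last 384, 317, 202 and 214. All 4 arrays at 24-28 weeks lay below all 4 at 3-4 weeks for each of these genes. Between those ages limma gave a difference of -1.64 (SE 0.16, adjusted p = 2.85e-05) for Rab11b, -0.74 (SE 0.09, adjusted p = 9.99e-05) for Grn and -0.81 (SE 0.10, adjusted p = 0.0001) for Pxk. Another, dimmer Grn probe set did not show this fall. It read 104 and 113 in females and 243 and 54.1 in males at 3-4 weeks, and 44.0, 251, 218 and 211 at 24-28 weeks. The other members were Atg7, which starts the lipidation step of autophagy (peak height 1.22), Ifi30, a lysosomal thiol reductase of antigen processing (1.07), Scamp2 (1.04), Unc93b1, which carries Toll-like receptors to endosomes (0.96), the endolysosomal exonuclease Pld4 (0.76), the lysosomal mannosidase Man2b1 (0.76), Gpr137b (0.74) and Psap, the precursor of the saposins (0.72).

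The 14 genes of macrophages, monocytes and innate immunity had a median peak height of 0.86. For Adam8 the female arrays read 60.2 and 43.0, then 240.5 and 185, then 42.4 and 94.2 at the 3 ages, and the male arrays 184 and 115, then 311 and 441, then 60.2 and 168. Adam8, a membrane metalloprotease of myeloid cells, peaked by 1.36, but its lowest array at 6-9 weeks was barely above the highest array of another age. Marco read 153 and 281 in females and 185 and 199 in males at 3-4 weeks, 408 and 379 and 472 and 442 at 6-9 weeks, and 99.5 and 112 and 43.6 and 127 at 24-28 weeks. At 3-4 weeks Csf1r gave 921 and 1015 in females and 959.7 and 1067 in males, at 6-9 weeks 1926, 1699.7, 2085 and 1615, and at 24-28 weeks 703, 749, 581 and 358. Marco, a scavenger receptor of splenic marginal zone macrophages, and Csf1r, the receptor for the macrophage growth factor CSF1, had peak heights of 0.97 and 0.86, and both were lower at 24-28 than at 3-4 weeks in limma. The difference was -0.92 (SE 0.23, adjusted p = 0.0121) for Marco and -0.75 (SE 0.13, adjusted p = 0.00156) for Csf1r.

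Ifi204 is an interferon-inducible protein of the p200 family. The Ifi204 signal was 543 and 620.2 (females) and 1031 and 972 (males) at 3-4 weeks, then 1205, 1224, 1953 and 1901, and last 703, 816, 1109 and 1067. At each age both male arrays lay above both female arrays, and at 6-9 weeks they stood highest of all. A further Ifi204 probe set (mean signal 142) also had both male above both female arrays at each age. Another, dimmer probe set (mean signal 71) went the other way at the younger ages. It read 115 and 118 in females against 35.2 and 75.1 in males at 3-4 weeks, and 122 and 43.6 against 41.7 and 37.8 at 6-9 weeks. The summed signal of the interferon-stimulated list, which holds Ifi204, was also higher in males at each age. This sum was 51331 and 50704 in females against 99017 and 100995 in males at 3-4 weeks. At 6-9 weeks it was 54396 and 53751 against 75040 and 70238, and at 24-28 weeks 53550 and 55658 against 82477 and 82310. Lgals3bp, a secreted glycoprotein that binds galectin-3, was higher in males at the younger ages. For Lgals3bp the female arrays read 916 and 833, then 1424 and 1528, then 803 and 725 at the 3 ages, and the male arrays 1329.9 and 1212, then 2092 and 2131, then 582 and 634. Its male arrays lay above the female ones at 3-4 and 6-9 weeks and below them at 24-28 weeks. Clu encodes clusterin, an extracellular chaperone. Clu read 1660.0 and 1452 in females and 1510.0 and 1509.7 in males at 3-4 weeks, 2663 and 2547 and 2767 and 2951 at 6-9 weeks, and 1481 and 1599 and 732 and 739 at 24-28 weeks. The male arrays of Clu at 24-28 weeks were the lowest of its 12, and those at 6-9 weeks the highest. The remaining members of the group were the tyrosine kinase Fes (1.22), the TNF receptor Tnfrsf1b (0.94), Adamdec1 (0.90), the interleukin-3 receptor chain Il3ra (0.89), the ectonucleotidase Entpd1 or CD39 (0.87), the phospholipid transfer protein Pltp (0.85), properdin (Cfp, 0.85) and Tgfbi (0.82).

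The group of lymphocyte receptors and chemokines held 6 genes, with a median peak height of 0.80. Ccl5, a chemokine made by cytotoxic lymphocytes, had the tallest peak among them (1.24). At 3-4 weeks Ccl5 gave 997 and 937 in females and 731 and 933 in males, at 6-9 weeks 2237, 2157, 2247 and 1967, and at 24-28 weeks 1249, 1242, 336 and 504. Its female arrays at 24-28 weeks stood above the arrays at 3-4 weeks and its male ones below them. Cd79a is the signalling chain of the B cell receptor and Cd8a a chain of the co-receptor of cytotoxic T cells. The Cd79a signal was 4965 and 6004 (females) and 3059 and 3672 (males) at 3-4 weeks, then 7414, 7965, 6207 and 7703, and last 3647, 3893, 1592 and 1659. For Cd8a the female arrays read 751 and 752, then 1334 and 1289, then 759 and 895 at the 3 ages, and the male arrays 699.8 and 732, then 1514 and 1673, then 220.5 and 215. For Cd8a the 4 arrays at 3-4 weeks lay close together, while the male arrays at 24-28 weeks read less than any other array.

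Il7r, the interleukin-7 receptor of naive and memory T cells, and Cd6, a T cell adhesion receptor, had peak heights of 0.72 and 0.71. Il7r read 294 and 317 in females and 300.1 and 343 in males at 3-4 weeks, 658 and 647 and 474 and 414 at 6-9 weeks, and 318 and 239.7 and 144 and 105 at 24-28 weeks. At 3-4 weeks Cd6 gave 128 and 158 in females and 119 and 123 in males, at 6-9 weeks 173, 247, 247 and 288, and at 24-28 weeks 155, 95.9, 15.6 and 36.3. On the brightest probe set of both genes the male arrays at 24-28 weeks were the lowest, but another Cd6 probe set did not show this. For Il7r the female arrays at 6-9 weeks lay above the male ones. The sixth gene was Ly9, a SLAM family receptor (0.83).

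The 22 transcription factors and chromatin proteins had a median peak height of 0.87. The Mef2c signal was 371 and 171 (females) and 232 and 146 (males) at 3-4 weeks, then 847, 863, 780.4 and 419.7, and last 52.3, 105, 20.7 and 34.8. Mef2c, a MADS-box factor that acts in B cells as well as in muscle, had a peak height of 1.56 and, among the 151 genes, the largest difference between 6-9 and 24-28 weeks (3.2). Its 24-28 week arrays all lay below those at 3-4 weeks. For Ikzf1 the female arrays read 142 and 87.4, then 225 and 225, then 152 and 145 at the 3 ages, and the male arrays 48.9 and 136, then 301 and 374, then 25.8 and 75.3. Ikzf1, the lymphoid regulator Ikaros, peaked by 1.25, with widely spread arrays at both other ages. Irf4 read 337 and 281 in females and 242 and 228 in males at 3-4 weeks, 532 and 461 and 600.1 and 534 at 6-9 weeks, and 264 and 309 and 59.5 and 64.1 at 24-28 weeks. At 3-4 weeks Pou2af1 gave 865 and 858 in females and 626 and 585 in males, at 6-9 weeks 1379.7, 1360.2, 1173 and 1548, and at 24-28 weeks 817, 849.7, 383 and 354. Irf4, a factor of activated B cells and plasma cells, and Pou2af1, the B cell co-activator OCA-B, peaked by 0.90 and 0.88, and the male arrays at 24-28 weeks were the lowest for both.

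Other factors of lymphoid cells in this group were Satb1 (peak height 1.001), Stat6, which carries the interleukin-4 signal (0.85), Bcl6, the regulator of germinal centre B cells (0.79), and Foxp1 (0.70). Myeloid factors were Cebpb (1.04), Spi1, which encodes PU.1 (0.83), and Irf5 (0.72). The rest were Tasor of the HUSH silencing complex (1.18), the deacetylase Sirt2 (1.09), Tcf25 (0.90), the nuclear receptor co-activator Ncoa3 (0.90), Ski (0.89) and Smad4 (0.79) of TGF-beta signalling, the nuclear receptor Nr2f2 (0.85), Zmym4 (0.79), Mycl (0.77), the retinoblastoma relative Rbl2 (0.77) and Mef2a (0.76).

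Spi1 is among the 151 genes, and several others are expressed in the myeloid and B cells where PU.1 acts. The promoters of the genes were searched for 14 motifs, among them the letters GAGGAAG, a core that PU.1 recognises. Of these motifs, GAGGAAG stood furthest above its share over all genes that the rule could take, and no test was run. Sequences are from RefSeq (GRCm38.p6), 250 bases before to 50 after the transcription start; 124 of the 151 genes matched by symbol, with 183 windows. GAGGAAG, searched on both strands, was in 42 of the 183 windows (23.0%), against 14.2% of the 6737 windows of all genes that the rule could take and 13.6% of all 32851 windows. By gene, 36 of 124 (29.0%) held it in at least 1 window, against 16.9% of 5239 genes. Of these 36, 8 were signalling genes, 8 transcription factors and chromatin proteins, 7 cytoskeletal genes and 4 macrophage and innate genes. Only examples are printed. Cmtm3, Ddx5, Ikbke, Abr, Satb1 and Ppfia4, not printed, also held a match and had taller peaks than Marco and Dock2. Further genes with a match, among them Fkbp5, Tnfrsf1b, Arhgef7 and Tcf25, had taller peaks than Dock2 and are not printed either. The sequences below are those of Mef2c at chr13:83523406-83523705 (plus strand), Fes at chr7:80387897-80388196 (minus strand), Marco at chr1:120504975-120505274 (minus strand) and Dock2, an activator of Rac, at chr11:34783856-34784155 (minus strand), written 5' to 3' along the gene, with the match in capitals. Counted from the 5' end of the window, the match lay at bases 65 to 71 in Mef2c, bases 272 to 278 in Fes, bases 105 to 111 in Marco and bases 242 to 248 in Dock2. The last 50 bases of each window follow the transcription start.
Mef2c: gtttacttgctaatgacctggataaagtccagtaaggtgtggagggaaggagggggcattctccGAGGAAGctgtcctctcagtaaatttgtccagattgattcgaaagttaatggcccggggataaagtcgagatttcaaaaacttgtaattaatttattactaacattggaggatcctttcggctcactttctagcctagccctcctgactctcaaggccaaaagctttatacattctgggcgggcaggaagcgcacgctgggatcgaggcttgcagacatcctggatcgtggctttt
Fes: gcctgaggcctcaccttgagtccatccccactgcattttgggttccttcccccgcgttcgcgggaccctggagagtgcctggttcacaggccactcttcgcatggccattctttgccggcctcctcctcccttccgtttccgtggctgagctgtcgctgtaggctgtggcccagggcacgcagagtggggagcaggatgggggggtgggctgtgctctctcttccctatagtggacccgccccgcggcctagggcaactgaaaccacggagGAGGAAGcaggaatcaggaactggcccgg
Marco: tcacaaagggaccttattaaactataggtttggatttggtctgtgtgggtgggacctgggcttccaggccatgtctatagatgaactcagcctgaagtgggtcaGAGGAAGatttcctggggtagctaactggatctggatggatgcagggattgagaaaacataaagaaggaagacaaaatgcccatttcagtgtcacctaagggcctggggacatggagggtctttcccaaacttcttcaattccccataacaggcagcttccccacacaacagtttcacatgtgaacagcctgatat
Dock2: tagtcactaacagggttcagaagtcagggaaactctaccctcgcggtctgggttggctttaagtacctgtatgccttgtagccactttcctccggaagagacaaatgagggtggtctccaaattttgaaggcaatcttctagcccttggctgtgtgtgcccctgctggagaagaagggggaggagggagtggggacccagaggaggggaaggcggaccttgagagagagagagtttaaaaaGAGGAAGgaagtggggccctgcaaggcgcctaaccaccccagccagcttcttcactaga

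Of the 14 motifs searched, the ETS letters CCGGAAG, which share GGAAG with the PU.1 letters, went the other way: 6.56% of the windows held them, against 16.2% of the windows of all genes that the rule could take and 8.86% of all windows. TATAAA was in 12.6% against 8.94% and 13.6%, and CCAAT in 31.1% against 36.9% and 37.4%. The GC box GGGCGG was in 58.5% against 59.8% and 35.7%, and the GATA letters AGATAA in 6.56% against 6.5% and 11.2%. Mean GC content was 59.8% in the windows of the 151 genes and 60.1% in those of all genes that the rule could take. A match says only that these letters are present, not that a factor binds there.

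The largest group, 28 genes of the actin cytoskeleton and adhesion, had a median peak height of 0.83. Rac2 read 3457 and 3966 in females and 3265 and 3224 in males at 3-4 weeks, 6372 and 6603 and 6946 and 6817 at 6-9 weeks, and 2341 and 2467 and 1329 and 1195 at 24-28 weeks. Rac2 had tight arrays within each group and the order 6-9, 3-4, 24-28 weeks without overlap. At 3-4 weeks Selplg gave 1478 and 1526 in females and 1401 and 1441 in males, at 6-9 weeks 2330.5, 2454, 2782 and 3109, and at 24-28 weeks 777, 934, 775 and 795. Selplg encodes PSGL-1, the selectin ligand by which leukocytes roll on vessel walls, and showed the same order of ages, also without overlap. The Myh7 signal was 70.7 and 95.9 (females) and 65.3 and 53.9 (males) at 3-4 weeks, then 213, 182, 107 and 137, and last 60.4, 70.0, 81.9 and 56.9. Myh7, a slow muscle and heart myosin chain, is measured by a probe set that can match related transcripts, and its female arrays at 6-9 weeks lay above the male ones.

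Members that bind or shape actin were Ctnna1 (1.10), Cotl1 (0.99), moesin (Msn, 0.92), Limch1 (0.79), Wdr1 (0.78), Cnn2 (0.77), Hcls1 (0.77), Marcksl1 (0.75), Mprip (0.75) and Evl (0.73). Adhesion molecules were the hyaluronan receptor Cd44 (0.79) and Icam1 (0.71). Arhgef1, Abr, Rhoj, Arhgef7, Dock2, Arhgap1, Septin6, Dctn1, Tesk1, Ppfia4, Frmd6, Pkp4 and Ptk2b, with peak heights from 0.73 to 1.11, made up the rest.

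Intracellular signalling held 24 genes, with a median peak height of 0.79. Traf1, an adaptor of TNF receptors, and Dgka, the diacylglycerol kinase of T cells, were the members with the clearest sex difference at 24-28 weeks. For Traf1 the female arrays read 213 and 222, then 504 and 397, then 328 and 365 at the 3 ages, and the male arrays 308 and 325, then 503 and 543, then 32.4 and 26.3. Dgka read 525 and 513 in females and 455 and 611 in males at 3-4 weeks, 879 and 944 and 769 and 934 at 6-9 weeks, and 502 and 580.2 and 143 and 151 at 24-28 weeks. On the male arrays at 24-28 weeks the Traf1 signal was about as large as the added 32, while the female arrays at that age lay above those at 3-4 weeks. The other kinases and lipid kinases were Ikbke (1.06), Cerk (1.01), Prkcd (0.96), Fyn (0.90), Pi4ka (0.86), Camk2b (0.78), Lats2 (0.72), Pik3cd (0.71), Pip4k2a (0.71) and Araf (0.70). Rasal3, Rras, Rasa3 and Rap1gds1, of the Ras and Rap pathways, lay between 0.73 and 0.83. Kcnab2, Dtx2, Gpr65, Rgs19, Ptpn22, Birc3, Strada and Ppp2r5a lay between 0.73 and 0.95.

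Of the 9 genes of glycosylation and the secretory pathway, Galnt11, which starts O-linked glycan chains, peaked most (1.58). At 3-4 weeks Galnt11 gave 22.3 and 87.3 in females and 39.6 and 20.6 in males, at 6-9 weeks 213, 159, 228 and 157, and at 24-28 weeks 33.1, 112, 20.1 and 26.9. Its signal outside 6-9 weeks was below 50 on 6 of the 8 arrays, so the peak rests on a low baseline. The St6gal1 signal was 833 and 729.9 (females) and 673 and 711 (males) at 3-4 weeks, then 1131, 1133, 1234 and 1464, and last 886, 985, 301 and 270.4. St6gal1, the sialyltransferase that makes the ligand of CD22 on B cells, peaked by 0.72, and its male arrays at 24-28 weeks were the lowest while its female ones lay above all arrays at 3-4 weeks. H13, B4galnt1, Pigu, Slc39a7, Rnf103, Fam20c and Man1a had peak heights from 0.73 to 0.95.

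The 8 genes of metabolism, steroid handling and oxygen sensing included Star, which carries cholesterol into mitochondria for steroid synthesis, and Fkbp5, a glucocorticoid-induced co-chaperone of steroid receptors. For Star the female arrays read 113 and 117, then 251 and 264, then 95.1 and 129 at the 3 ages, and the male arrays 147 and 145, then 246 and 405, then 76.9 and 14.2. Fkbp5 read 327 and 321 in females and 199.9 and 136 in males at 3-4 weeks, 465 and 542 and 434 and 478 at 6-9 weeks, and 182 and 103 and 182 and 244 at 24-28 weeks. At 3-4 weeks Pnpla2 gave 606 and 801 in females and 605 and 583 in males, at 6-9 weeks 1016, 961, 1322 and 1112, and at 24-28 weeks 472, 394, 314 and 474. Pnpla2 encodes the triglyceride lipase ATGL, and for all of these genes the arrays at 6-9 weeks stood apart from the rest, with peak heights of 0.97, 0.95 and 0.74. Rnpep (1.17), Padi2 (1.11), the oxygen sensor Egln1 (0.86), Slc25a28 (0.74) and Ldah (0.74) were the others.

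Among 8 genes of RNA processing and translation the splicing protein Wbp4 peaked most (1.23). The Wbp4 signal was 91.6 and 46.9 (females) and 37.2 and 135 (males) at 3-4 weeks, then 238, 195, 218 and 192, and last 76.1, 38.2, 145 and 47.3. Its baseline arrays were widely spread. For Rpl22 the female arrays read 475 and 423, then 794 and 731, then 424 and 396 at the 3 ages, and the male arrays 384 and 379, then 547 and 780.4, then 218 and 298. Sfpq read 363 and 278 in females and 237 and 239 in males at 3-4 weeks, 565 and 527 and 382 and 436 at 6-9 weeks, and 96.3 and 174 and 128 and 119 at 24-28 weeks. Rpl22 is a ribosomal protein needed in T cell development, and Sfpq a splicing factor; their peak heights were 0.73 and 0.72, and the female arrays of Sfpq at 6-9 weeks lay above the male ones. Ddx5 (1.16), Tsen34 (0.88), Celf2 (0.87), Efl1 (0.86) and Eif4b (0.81) completed the group. The 5 growth factors and secreted regulators were Tgfb1 (1.03), Htra1 (0.74), Fgf1 (0.73), Ccn2 (0.72) and Efnb2 (0.70).

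The 12 genes of other or less known function included Cmtm3 and Cmtm6, of the family of chemokine-like membrane proteins to which the PD-L1 stabiliser CMTM6 belongs. At 3-4 weeks Cmtm3 gave 83.0 and 40.0 in females and 98.2 and 23.9 in males, at 6-9 weeks 168, 242, 252 and 161, and at 24-28 weeks 88.3, 53.1, 76.1 and 15.8. The Cmtm6 signal was 52.2 and 143 (females) and 125 and 112 (males) at 3-4 weeks, then 255, 285, 341 and 438, and last 51.1, 102, 36.6 and 72.5. The arrays at 6-9 weeks lay above the rest for both, with peak heights of 1.41 and 1.39. Abhd8 (1.19), Rex1bd (0.96), D430019H16Rik (0.84), Prr13 (0.81), Klhl24 (0.79), Rnf145 (0.74), Unc119b (0.73), Wbp1l (0.73), Fam114a2 (0.73) and Tspyl4 (0.72) were the rest.

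**Figure D3:**
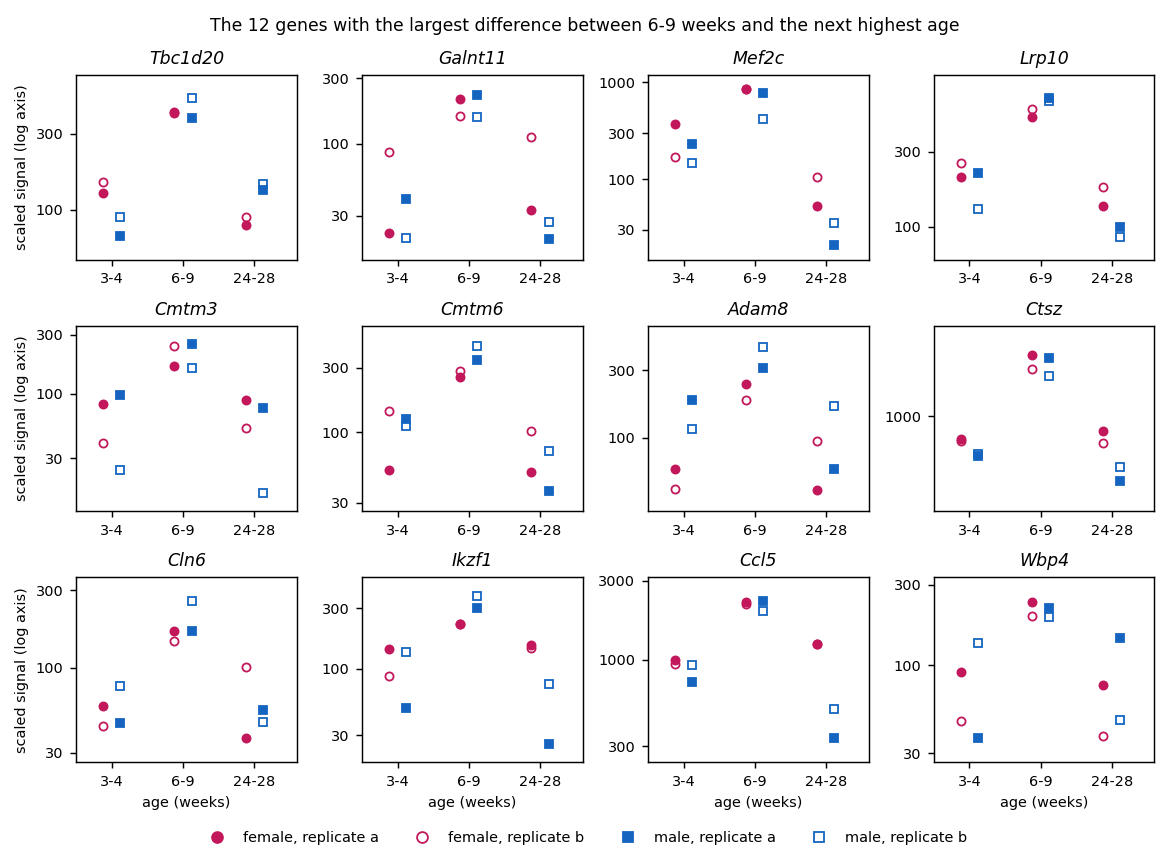
Scaled signal on a log axis by age for the 12 genes with the largest peak heights, 1 point per array, females as circles and males as squares, replicate a filled and b open. All 4 points at 6-9 weeks lie above the other 8 in every panel, by the widest margin for Tbc1d20 and by the narrowest for Adam8 (184.9 against 183.9).

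Other probe sets of the same genes were not used by the rule and give another reading of the peak. They numbered 55 for 43 of the genes, and 35 of them, for 29 genes, reached a scaled signal of 100 on at least 2 arrays. Of these 35, 31 were higher at 6-9 weeks than at both other ages, 11 had all 4 arrays at 6-9 weeks above the other 8, and 4 met the whole rule. Their median peak height was 0.53, against 0.81 for the brightest probe sets of the same genes. The 4 were 3 further probe sets of Mef2c (0.72, 1.02 and 1.23) and 1 of Kcnab2 (0.99). A second St6gal1 probe set had a peak height of 1.23, but its arrays overlapped. Other probe sets of Lrp10 (0.20), Clu (0.20), Star (0.17), Man2b1 (0.08), Scamp2 (0.07), Ikzf1 (0.04), Grn (0.04), Rpl22 (0.00) and Cd6 (-0.00) were little or not higher at 6-9 weeks. The 2 further ones of Sfpq had heights of 0.27 and 0.09. Those of Csf1r (-0.56) and Pi4ka (-0.53) were lower at 6-9 weeks than at both other ages, and the further ones of Ifi204 split, at -0.35 and 0.20. For these genes the peak holds for 1 probe set only. Psap had a further probe set at 0.09 and a dimmer one at 0.76 whose arrays overlapped. Of the 151 brightest probe sets, 14 have identifiers that mark shared or less specific probes: those of Fes, Prkcd, Unc93b1, Kcnab2, H13, Myh7, Nr2f2, Eif4b, Rgs19, Cd44, Ifi204, Lats2, Sfpq and Cd6.

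The sex difference was not itself used to choose the genes, but the rule used the same arrays. It took age means over both sexes, so low male values at 24-28 weeks helped a gene to pass. The sex difference at that age is therefore not independent of the selection. The demand that arrays of different ages do not overlap also limits their spread. The difference between the sexes passed the test for few of the genes at 3-4 and 6-9 weeks and for many at 24-28 weeks. At 3-4 weeks limma called 2 of the 151 genes higher in males, against 1.85% of all 8926 probe sets tested, and 1 lower, against 1.22%. The male minus female difference was 0.75 (SE 0.11, adjusted p = 0.00287) for Ifi204, 0.52 (SE 0.10, adjusted p = 0.0202) for Lgals3bp and -0.70 (SE 0.13, adjusted p = 0.0146) for Cd79a. In each case both arrays of one sex lay beyond both of the other on the brightest probe set, though the dimmest Ifi204 probe set went the other way. Without female replicate b or without male replicate a at 3-4 weeks 1 call was left, with Cd79a at an adjusted p of 0.142 and 0.124. Lgals3bp lost its call without any one of the 4 arrays of that age (adjusted p from 0.0541 to 0.153).

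At 6-9 weeks, the age of the peak, Ifi204 at 0.65 (SE 0.11, adjusted p = 0.00283) and Lgals3bp at 0.51 (SE 0.10, adjusted p = 0.011) were again higher in males in limma, and no gene was called lower. The share of all probe sets called was 3.66% higher and 4.91% lower. At an unadjusted p under 0.05, 9 of the 151 genes were higher in males and 3 lower, with no count over all probe sets at that threshold. The median difference of the 151 genes was 0.12, against 0.03 over all probe sets. After scaling to the median that value was 0.0087. After quantile normalization 4 genes were called higher, and after scaling to the median 2 were higher and 1 lower. Without female replicate a or male replicate b at 6-9 weeks Lgals3bp was not called (adjusted p = 0.093 and 0.0547).

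At 24-28 weeks 55 of the 151 genes (36.4%) were lower in males and 4 higher in limma, against 9.68% and 7.04% of all probe sets. The median difference was -0.53, against -0.08 over all probe sets, and 131 of the 151 values were below 0. The 6 with the smallest p were Cd8a at -1.78 (SE 0.11, adjusted p = 1.04e-06), Traf1 at -2.63 (SE 0.18, adjusted p = 2.23e-06), St6gal1 at -1.61 (SE 0.12, adjusted p = 5.11e-06), Clu at -1.03 (SE 0.10, adjusted p = 1.86e-05), Dgka at -1.67 (SE 0.16, adjusted p = 2.43e-05) and Irf4 at -1.76 (SE 0.18, adjusted p = 3.52e-05). Both male arrays lay below both female arrays for each of these genes. By role, all 6 lymphocyte receptor and chemokine genes were called lower, 11 of 24 signalling genes, 9 of 28 cytoskeletal genes, 7 of 15 lysosomal and traffic genes, 6 of 22 transcription factors and chromatin proteins and 4 of 14 macrophage and innate genes. The lower male level was not particular to the 151 genes. Outside them, limma called 15 of 21 genes of the B cell list and 11 of 17 of the T cell list lower in males. So were 8 of 15 NK and cytotoxic and 6 of 12 dendritic cell genes, with 0 higher in each of these lists. Of 20 further macrophage and monocyte genes 3 were lower and 2 higher. For Cd6, in the lymphocyte group, another probe set was not lower in males: it read 111 and 101 in females and 128 and 118 in males. The 4 of the 151 genes called higher in males were Ifi204 (0.50), Fes (1.20), Spi1 (0.63) and Cebpb (0.59). Ifi204 was called higher at both other ages too. Of 29 further genes of the interferon-stimulated list, limma called 13 higher and 4 lower in males at 24-28 weeks. The macrophage and innate group, which holds Ifi204 and Fes, had 2 higher and 4 lower, with a median difference of -0.49. Without male replicate a at this age none of the genes called higher passed, and 43 were lower. After scaling to the median 42 were lower and 4 higher, with a median of -0.41. The male arrays at this age also had the highest beta-actin ratio of all groups. Summed signals there were 174078 and 174770 for the erythroid list, against 116277 and 117823 in females, and 156708 and 151384 for the neutrophil list, against 21109 and 22515. The part of these in the sex difference was not tested.

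**Figure D4:**
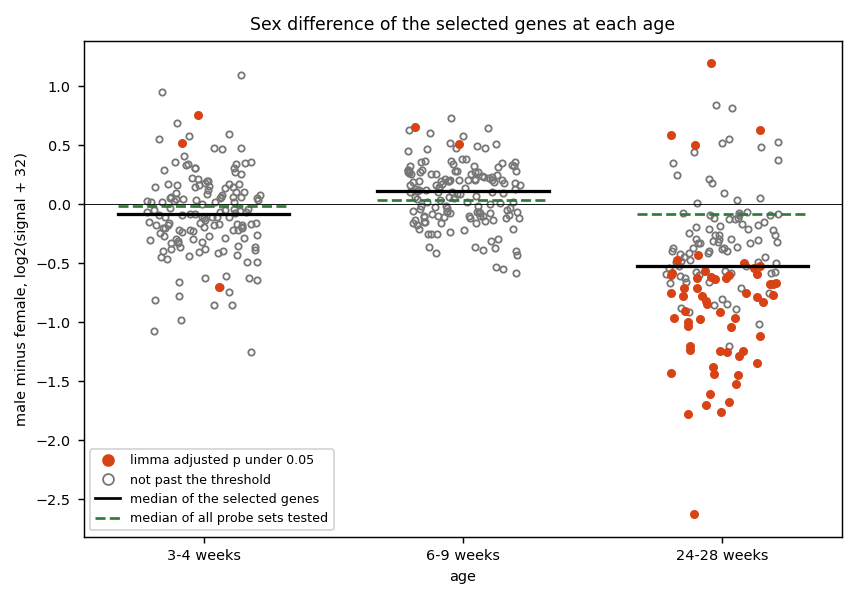
Male minus female difference in log2(scaled signal + 32) at each age, 1 point per gene, filled where the limma adjusted p was under 0.05, with the median of the 151 genes as a solid line and that of all 8926 probe sets tested as a dashed line. The medians of the 151 genes were -0.08, 0.12 and -0.53 from the youngest to the oldest age, and 3, 2 and 59 genes passed the threshold.

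Averaged over the ages, 25 genes were lower in males and 4 higher, against 5.1% and 3.76% of all probe sets in limma. Ifi204 was higher at 0.64 (SE 0.06, adjusted p = 5.7e-05). The lower genes with the smallest p were Cd79a at -0.68 (SE 0.08, adjusted p = 0.000166), Cd8a at -0.52 (SE 0.07, adjusted p = 0.000381), Pou2af1 at -0.54 (SE 0.07, adjusted p = 0.000809), St6gal1 at -0.51 (SE 0.07, adjusted p = 0.000893) and Dgka at -0.58 (SE 0.09, adjusted p = 0.00193). The others called higher were Spi1 (0.42), Fes (0.69) and Lgals3bp (0.24). Without the male arrays at 24-28 weeks 6 calls were left, 4 higher and 2 lower, and the values of Cd8a (0.10) and St6gal1 (0.04) had the opposite sign. Without female replicate a at 6-9 weeks 19 were left, 1 of them higher.

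Whether the sex difference at 6-9 weeks stood apart from that at the other ages was asked with an interaction, the sex difference at 6-9 weeks minus the mean of the sex differences at 3-4 and 24-28 weeks. This contrast uses the mean of both other ages, unlike the peak height, and so takes in the lower male values at 24-28 weeks. Those values also entered the rule, so the interaction is not independent of the selection. In limma it was above 0 for 18 genes and below 0 for 0, against 3.89% and 4.79% of all probe sets. At an unadjusted p under 0.05 the counts were 46 and 0, with no count over all probe sets at that threshold. The 6 with the smallest p were Cd8a at 1.20 (SE 0.14, adjusted p = 0.000228), St6gal1 at 1.13 (SE 0.15, adjusted p = 0.000702), Traf1 at 1.28 (SE 0.22, adjusted p = 0.00405), Irf4 at 1.24 (SE 0.22, adjusted p = 0.00413), Clu at 0.67 (SE 0.12, adjusted p = 0.00419) and Rac2 at 0.64 (SE 0.12, adjusted p = 0.00528). The median over the 151 genes was 0.37, against 0.08 over all probe sets, and 132 values were above 0. After scaling to the median it was 0.21, with 8 calls. Taken between 3-4 and 6-9 weeks alone, without the male arrays at 24-28 weeks, the median was 0.14, and limma called 0 genes. At an unadjusted p under 0.05, 16 were higher and 1 lower, again with no count over all probe sets. The value of Traf1 had the opposite sign (-0.27). Leaving out female replicate a, female replicate b or male replicate b at 6-9 weeks left 7, 8 and 11 calls.

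The rule bounded both outer ages alike and set no order between them. It did use the values at both ages, so 24-28 against 3-4 weeks is not independent of the selection. The counts and p-values below therefore describe genes chosen in that way. Over all genes, the turned rule took 187 that were lowest at 24-28 weeks and 5 that were lowest at 3-4 weeks. In limma 62 of the 151 genes (41.1%) were lower at 24-28 weeks and 1 higher, against 18.4% and 10.3% of all probe sets, and the median difference was -0.35, against -0.13 over all. The genes with the smallest p were Rac2 at -0.98 (SE 0.07, adjusted p = 1.59e-06), Selplg at -0.81 (SE 0.07, adjusted p = 1.58e-05) and Cd8a at -0.73 (SE 0.08, adjusted p = 5.74e-05), with Rab11b, Grn and Pxk as given above. All 4 arrays at 24-28 weeks lay below all 4 at 3-4 weeks for Rac2 and Selplg, but for Cd8a only the male arrays did, and the female ones lay above. Ifi204 was the gene called higher, at 0.24 (SE 0.08, adjusted p = 0.0334), and without male replicate a or b at 3-4 weeks it was not called. By role, 14 of 24 signalling genes, 13 of 28 cytoskeletal genes, 8 of 22 transcription factors and chromatin proteins, 7 of 15 lysosomal and traffic genes, 5 of 6 lymphocyte genes and 5 of 14 macrophage and innate genes were lower. In females alone 20 genes were called lower and 2 higher, with no count over all probe sets beside them. The median in females was -0.14, and Cd8a had the opposite sign (0.13). Over both sexes the median was -0.21 after quantile normalization and -0.17 after scaling to the median.

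The other genes of these cell types and pathways were counted from fixed gene lists, leaving out any of the 151 genes. The comparisons with 3-4 and with 24-28 weeks share the 4 arrays at 6-9 weeks, so the counts of one do not stand apart from the other. Among all 8926 probe sets limma called 14.2% higher and 11.2% lower at 6-9 than at 3-4 weeks, and 28.8% higher and 15.9% lower than at 24-28 weeks. The rule itself used these contrasts, and 141 and 149 of the 151 genes were past the threshold in them. After scaling to the median the split over all probe sets turned from 1265 higher and 1003 lower to 878 and 1200 against 3-4 weeks. Against 24-28 weeks it went from 2573 and 1419 to 1859 and 1721 with quantile normalization and to 1373 and 2400 with the median.

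Most genes called in the lists of macrophages, dendritic, cytotoxic, T and B cells were higher at 6-9 weeks. Against 3-4 weeks 11 of 20 further genes of red pulp macrophages and monocytes rose and 0 fell. Hmox1, which breaks down heme, rose by 0.74 (SE 0.07, adjusted p = 2.14e-05). Of 12 dendritic cell genes 6 rose and 0 fell, of 15 NK and cytotoxic genes 5 and 0, of 17 T cell genes 4 and 0, and of 21 B cell genes 7 and 1, among them Cd37 at 0.66 (SE 0.08, adjusted p = 0.000108). Against 24-28 weeks 14 of 21 B cell genes and 13 of 17 T cell genes rose, with 1 lower in each, as did 20 of 32 stromal and matrix genes (1 lower) and 10 of 15 endothelial genes (0 lower). The median difference from 3-4 weeks, any of the 151 genes in a list included, was 0.40 for the macrophage, 0.37 for the dendritic, 0.36 for the cytotoxic, 0.40 for the T cell and 0.28 for the B cell list, against 0.05 over all probe sets. These medians were also above 0 under quantile normalization and under scaling to the median, but with the median 3 B cell, 0 T cell and 3 cytotoxic genes were called higher than at 3-4 weeks. Against 24-28 weeks 6 endothelial and 15 stromal genes were called higher with the median, and 7 and 16 with quantile normalization. Other immune lists differed: of 12 plasma cell and immunoglobulin genes 5 were higher and 2 lower than at 3-4 weeks but 2 higher and 5 lower than at 24-28 weeks. Of 11 genes of mast cells, basophils and eosinophils 0 were higher and 3 lower than at 3-4 weeks, and 1 higher and 3 lower than at 24-28 weeks. Neutrophil genes are given with the erythroid genes. Of the 151 genes themselves, Cd79a and Pou2af1 are in the B cell list, Cd8a, Il7r and Cd6 in the T cell list, Ccl5 in the cytotoxic list, and Csf1r and Marco in the macrophage list; 16 of the 151 are in any of the 34 lists.

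Erythroid and cell division genes were mostly lower at 6-9 weeks, and none of the 151 genes is in those lists. Of 34 erythroid genes 30 were lower at 6-9 than at 3-4 weeks and 1 higher, and 29 were lower than at 24-28 weeks. Rhd, a red cell membrane protein, differed by -2.41 (SE 0.07, adjusted p = 1.39e-09) and -2.06 (SE 0.07, adjusted p = 4.04e-09). Of 39 mitosis genes 32 were lower than at 3-4 weeks and 0 higher, and 23 were lower and 2 higher than at 24-28 weeks, with Birc5 at -1.82 (SE 0.07, adjusted p = 8.6e-09) and -1.96 (SE 0.07, adjusted p = 6.12e-09). DNA replication genes were lower in 27 and 22 of 42, proteasome genes in 20 and 22 of 35, oxidative phosphorylation genes in 17 and 30 of 46, and neutrophil genes in 10 and 16 of 23 (3 and 1 higher). The summed neutrophil signal was lower at 6-9 than at 24-28 weeks in males only. It was 38023 and 32158 against 156708 and 151384 in males, but 25116 and 25244 against 21109 and 22515 in females. The median difference from 3-4 weeks was -1.42 for the erythroid and -0.71 for the mitosis list, and the medians of all lists in this paragraph up to here were below 0 at both comparisons under all 3 scalings. The summed signal of the erythroid list ran from 146928 to 152981 on the arrays at 3-4 weeks, from 47129 to 79631 at 6-9 weeks and from 116277 to 174770 at 24-28 weeks. Of the 140 genes that were lowest at 6-9 weeks by the turned rule, 41 are in the erythroid, heme or cell cycle lists. Each array was scaled to the same mean, and the part of these bright genes in the level of the 151 genes was not tested. Genes of the exocrine pancreas, which lies beside the spleen, were present on all 12 arrays, and none of the 151 genes is in that list. Their summed signal ran from 84328 to 123493 at 3-4 weeks, from 65706 to 156882 at 6-9 weeks and from 143155 to 212298 at 24-28 weeks. Of 26 such genes 22 were lower and 1 higher at 6-9 than at 24-28 weeks (median -0.87), against 5 lower and 3 higher than at 3-4 weeks. At 24-28 weeks 12 were lower and 4 higher in males. Their part in the age and sex differences of the 151 genes was not tested.

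**Figure D5:**
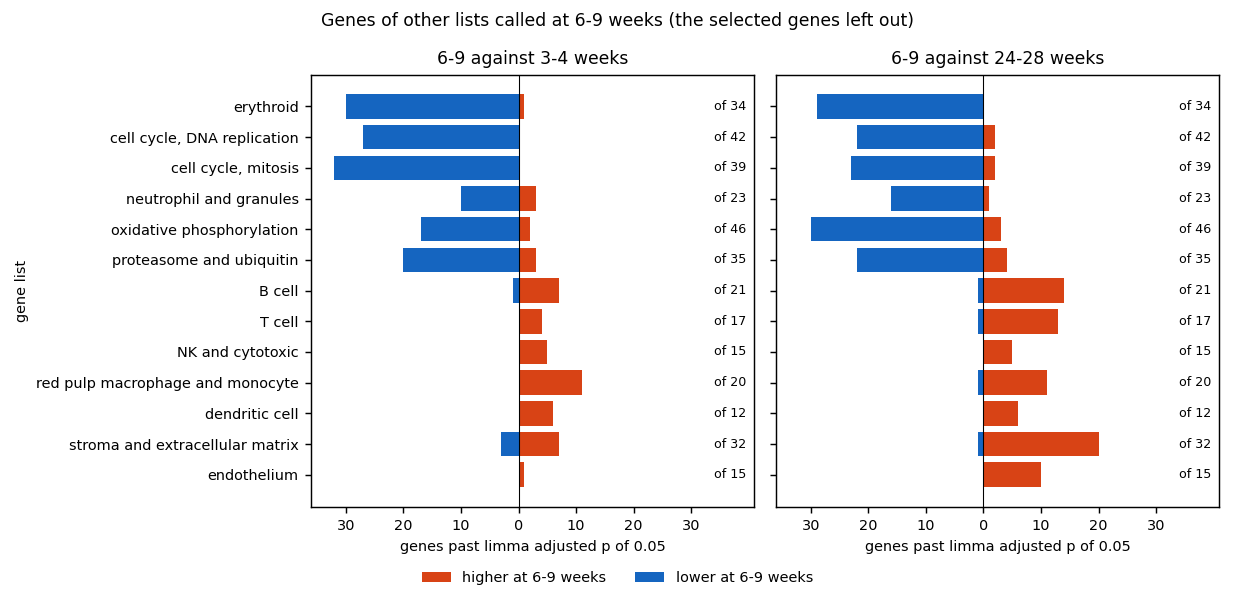
Bars give the number of genes of each list past a limma adjusted p of 0.05, higher (to the right) or lower (to the left) at 6-9 weeks than at 3-4 weeks (left panel) and 24-28 weeks (right panel), with the number tested at the margin and the 151 genes left out. Erythroid genes were lower in 30 and 29 of 34, and B cell genes higher in 7 and 14 of 21.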

How the data were processed

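Spleen RNA was measured on 12 Affymetrix oligonucleotide arrays, 2 for each of 6 groups. The deposited values are signal intensities per probe set, made by the authors with MAS5, per the submitters' processing notes; no label describes any other step. The number of arrays limits the precision.

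Arrays were brought to a common trimmed mean of 500 and analysed as log2(signal + 32). Of 12488 probe sets, 66 controls and 3496 that did not reach 100 on 2 arrays were left out, and 8926 were tested. Group means were fitted with limma 3.58.1 (R 4.3.3; lmFit, then eBayes with an intensity trend), with Benjamini-Hochberg adjustment over all 8926 and a threshold of 0.05. The fit was checked on simulated data. Gene names are from GEO's platform annotation: 10833 probe sets have 1 symbol, 396 several and 1193 none, and 10817 of the symbols are current in RefSeq.

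The genes, their role groups and the lists were chosen with earlier results of these data known. Named genes are the 12 with the largest peak, up to 4 with the largest peak in each gene list that held one, and those with the smallest p in each test. The replicate letters do not pair arrays: correlations of deviations over 15 pairs ran from -0.0657 to 0.059. Promoter letters were searched on both strands. Alternatives were an offset of 1 or 16, quantile or median scaling, no filter or 200 on 4 arrays, no trend, a replicate block, and each array or the male arrays of an age left out.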

Additional observations from a re-analysis of the deposited data

Results flagged for a closer look

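The sex difference at 6-9 weeks differed from the mean of the sex differences at 3-4 and 24-28 weeks, by the interaction in limma, for the 6 genes given here (male minus female, log2 scale). The difference was 1.20 for Cd8a, 1.13 for St6gal1, 1.28 for Traf1, 1.24 for Irf4, 0.67 for Clu and 0.64 for Rac2. In all 6 the male arrays at 24-28 weeks were the lowest of the 12, and those values also entered the rule that chose the genes. Without those arrays none of the 6 passed the threshold, and Traf1 was at -0.27.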

How the results depend on the processing

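Scaling to the median left 71 genes that met the rule and 8 of the 18 interaction calls, quantile normalization gave 4 sex calls at 6-9 weeks, and a fit with no intensity trend gave 1 sex call at 3-4 weeks and 9 interaction calls. Without the male arrays at 24-28 weeks there were 6 sex calls averaged over ages, 0 interaction calls and 22 calls between 24-28 and 3-4 weeks, and 1942 of all probe sets were called between 6-9 and 24-28 weeks. Cd8a then reversed in the averaged sex difference (0.10) and between 24-28 and 3-4 weeks (0.13), St6gal1 in the averaged sex difference (0.038) and Traf1 in the interaction (-0.27). Without the male arrays at 6-9 weeks 1067 and 1997 probe sets were called at 6-9 against 3-4 and 24-28 weeks. Leaving out 1 array at a time gave 147 to 179 genes by the rule, 19 to 28 sex calls averaged over ages, 1 to 4 at 3-4 weeks, 1 to 2 at 6-9 weeks and 40 to 59 at 24-28 weeks, 7 to 20 interaction calls and 55 to 64 calls between 24-28 and 3-4 weeks. With the replicate block the calls among the genes were 29, 3, 2 and 56 for sex (averaged, then by age), 18 for the interaction and 63 between 24-28 and 3-4 weeks. Dim probe sets limit the sizes: values near the added 32 understate a difference. The cause of these changes was not tested.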
